A study of Rattus norvegicus with 4 samples.

Results

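Channel-activating proteases and the inhibitors that restrain them were examined in surface cells of the rat distal colon, an epithelium that absorbs sodium and water. The set was chosen by gene name and held 9 genes. They were the serine proteases Prss8, St14, Tmprss2, Tmprss4, Furin, Hpn and Prss22, which have been linked to the cleavage of the epithelial sodium channel, and the Kunitz inhibitors Spint1 and Spint2. Of these 9, 7 had a row on the arrays that carried their symbol alone, out of 13215 named genes and 19403 rows. Tmprss4 and Prss22 had no such row and were not analysed here.

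The aldosterone group was 2 Wistar rats aged 12 weeks that received aldosterone by a subcutaneous injection (50 µg per 100 g) and by an osmotic minipump (10 µg/kg per hour), with 100 nM aldosterone in the solution in which the cells were shaken off for 40 min. The vehicle group was 2 rats of the same strain and age, given vehicle by the same routes and in the same solution. All 4 rats had lost both adrenal glands 4 days earlier, drank 0.9% NaCl and were killed after 2 h of treatment, and each gave 1 Affymetrix exon array. The animals thus lacked their own adrenal steroids in both groups. Effects that take longer than the 2 h of treatment and the 40 min of shaking lie outside the design.

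The epithelial sodium channel is built from alpha, beta and gamma subunits and lets sodium enter the cell from the lumen. It reaches the surface partly silent. Cleavage of the extracellular loops of the alpha and gamma subunits by furin in the Golgi, and then by membrane-anchored serine proteases such as prostasin, releases inhibitory stretches and raises the time that the channel stays open. Matriptase and prostasin form a cascade at the epithelial surface, and the Kunitz inhibitors HAI-1 and HAI-2 hold that cascade in check. In people, loss of SPINT2 causes a congenital sodium-losing diarrhoea, and in rats aldosterone has been reported to raise prostasin. The comparison asked whether the transcripts of this machinery differ within 2 h of aldosterone.

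Promoter sequence is shown for Tmprss2, Spint1 and Spint2, as 1 protease of the set and both inhibitors. It is also shown for Prss30, the protease whose values differed most between the groups (chosen after its values were seen). The windows are the 250 bases before the annotated start, 5′ to 3′ on the gene's strand, from RefSeq on the GRCr8 assembly. Capitals mark GC boxes (GGGCGG, or CCGCCC on the other strand) and half-sites of the steroid receptor element (TGTTCT, or AGAACA on the other strand).
Tmprss2, chr11:50443115-50443364, minus strand: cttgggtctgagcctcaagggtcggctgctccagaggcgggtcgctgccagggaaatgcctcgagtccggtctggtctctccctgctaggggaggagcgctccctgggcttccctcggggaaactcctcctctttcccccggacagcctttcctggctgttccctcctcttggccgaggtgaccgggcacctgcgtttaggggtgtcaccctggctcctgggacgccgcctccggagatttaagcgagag
Spint1, chr3:126685031-126685280, plus strand: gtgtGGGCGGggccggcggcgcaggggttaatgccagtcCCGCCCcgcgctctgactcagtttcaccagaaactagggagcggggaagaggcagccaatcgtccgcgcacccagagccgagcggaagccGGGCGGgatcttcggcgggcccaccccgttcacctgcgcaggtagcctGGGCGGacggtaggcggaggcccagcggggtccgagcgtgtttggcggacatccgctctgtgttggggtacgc
Spint2, chr1:93708092-93708341, minus strand: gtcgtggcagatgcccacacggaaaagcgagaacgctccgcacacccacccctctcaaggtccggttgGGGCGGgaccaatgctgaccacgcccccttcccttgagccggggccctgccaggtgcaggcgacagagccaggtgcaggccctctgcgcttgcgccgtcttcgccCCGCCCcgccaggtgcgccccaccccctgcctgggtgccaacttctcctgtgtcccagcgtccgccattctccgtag
Prss30, chr10:13515606-13515855, minus strand: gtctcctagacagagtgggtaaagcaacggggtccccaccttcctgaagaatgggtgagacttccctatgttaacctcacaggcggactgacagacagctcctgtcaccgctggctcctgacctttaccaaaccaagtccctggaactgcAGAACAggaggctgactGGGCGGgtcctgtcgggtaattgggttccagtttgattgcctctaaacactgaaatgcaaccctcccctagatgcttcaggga

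Of the 9 genes, 4 matched a window in the RefSeq table, the 3 shown and Hpn. The half-site was found in 0 of these 4 windows, against 17.5% of all 33469 windows of that length, and once in Prss30, from 100 to 95 bases before the start. The GC box was found 4 times in Spint1, 2 times in Spint2, 3 times in Hpn and not in Tmprss2, and 30.5% of all windows held at least 1. These matches describe letters in a short window and show nothing about binding.

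The arrays gave 1 log2 value per row and rat, and every difference below is aldosterone minus vehicle on that log2 scale. Since each row has its own probes, the level of one gene cannot be set against that of another. Rows with a mean under 3, which made up 65.0% of the table, were taken as near the floor. All 7 measured markers of surface colonocytes, such as Slc26a3, Krt20 and Epcam, lay between 9.38 and 12.75 in every rat. Slc26a3, Krt20, Aqp8, Epcam and Cdhr5 were higher in both aldosterone rats without overlap, as were 16.7% of all rows. Guca2a and Cdh1 overlapped. The median difference of the 7 was 0.087, and the largest was 0.55 for Slc26a3. Of 30 measured markers of 9 other cell types (crypt, enteroendocrine, mast, T, B and plasma cells, macrophages, fibroblasts, smooth muscle and endothelium), 28 had means below 3, and the highest was Cd79b with 3.15. The 3 measured goblet markers did not move together. Zg16 lay at 6.39 and 8.06 in aldosterone rats, against 5.14 and 4.45 in vehicle rats, with no overlap. Tff3, at 9.44 and 11.30 in aldosterone rats, against 11.12 and 10.74 in vehicle rats, and Agr2, at 7.69 and 8.52 in aldosterone rats, against 7.89 and 7.91 in vehicle rats, overlapped. The part of goblet cells in the values below was not tested. These are bulk samples, in which fewer cells of a type and less RNA per cell cannot be told apart.

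None of the 7 measured proteases and inhibitors passed the test between aldosterone and vehicle rats, and for each of them the rats of at least 1 group differed from each other by more than the groups did. Their log2 differences ran from -0.22 for St14 to 0.16 for Spint1, with a median of 0.022 against 0.024 over all rows. In limma with a prior variance common to all rows, 0 of 7 passed an adjusted p of 0.05, and among all rows 0% did. At an unadjusted p under 0.05 the count was also 0 of 7, against 4.53% of all rows. With a prior variance that follows the expression level the count was 0 of 7, against 0.108% of all rows. With the common prior, the 95% intervals of the 7 differences together spanned 1.57-fold lower to 1.65-fold higher. The narrowest was that of Furin, from -0.26 to 0.30 on the log2 scale. These bounds depend on the prior. With each row's own variance alone (no moderation), intervals reached as far as -1.11 for Tmprss2 and 1.31 for Prss8 on the log2 scale.

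**Figure D1:**
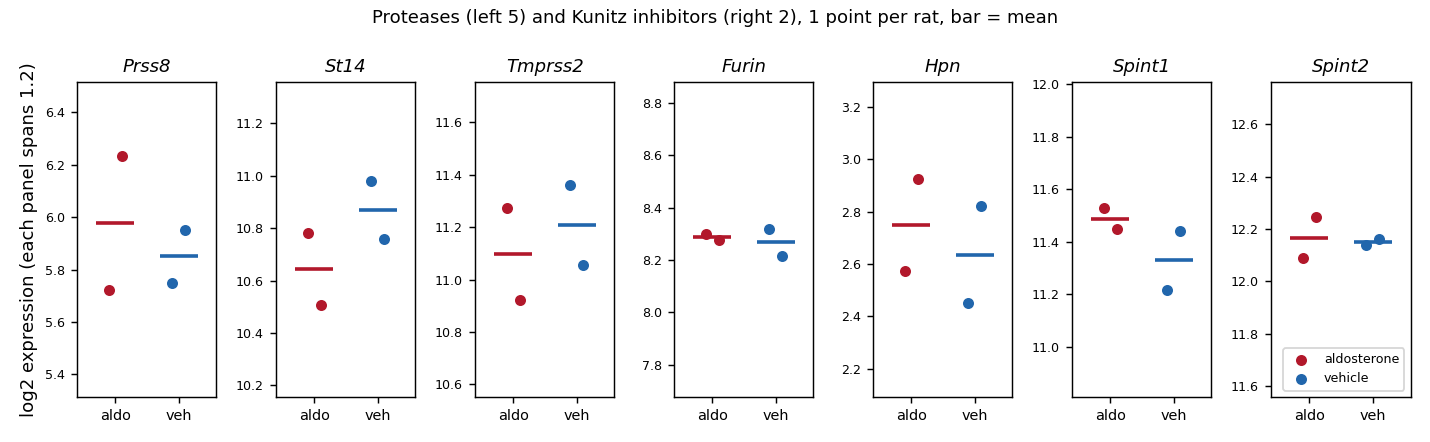
Log2 expression of the 5 measured proteases and the 2 Kunitz inhibitors, 1 point per rat and a bar for each group mean (n = 2 each), aldosterone on the left and vehicle on the right of each panel, every panel spanning 1.2 log2 units around its own centre. The groups overlap in 6 panels, and in Spint1 both aldosterone rats (11.53 and 11.45) lie above both vehicle rats (11.22 and 11.44).

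Prss8 encodes prostasin, the glycolipid-anchored protease that was the first of the channel-activating proteases to be described. Its log2 level was 5.72 and 6.24 in aldosterone rats, against 5.75 and 5.95 in vehicle rats. The aldosterone rats held both the highest and the lowest value, so that the groups overlapped. The means were 5.98 ± 0.36 in aldosterone rats and 5.85 ± 0.14 in vehicle rats (SD, n = 2 each). The difference of 0.13 corresponds to 1.09-fold, with a 95% interval from -0.46 to 0.72 in limma (adjusted p = 1.00). With the prior that follows the level the interval was -0.58 to 0.83. Without the aldosterone rat of replicate 2 the difference was -0.13. A second row carried Prss8 together with the neighbouring protease gene Prss36 and so could not be assigned to either. It stood at 2.64 and 2.78 in aldosterone rats, against 2.44 and 2.72 in vehicle rats, near the floor.

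St14 encodes matriptase, the transmembrane protease that activates prostasin. Its log2 level was 10.78 and 10.51 in aldosterone rats, against 10.98 and 10.76 in vehicle rats. The highest rat was a vehicle rat and the lowest an aldosterone rat, with the other two almost level. The means were 10.64 ± 0.19 in aldosterone rats and 10.87 ± 0.16 in vehicle rats. The difference of -0.22 was the largest of the 7 in size (1.17-fold lower, interval -0.65 to 0.20, unadjusted p = 0.223 and adjusted p = 1.00 in limma). It stayed negative with any 1 array left out, from -0.36 to -0.087. Among the 4815 rows with a mean of 4 or more, 45.3% differed by more than St14 did.

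Tmprss2 encodes a transmembrane serine protease best known from prostate and from the activation of viral spike proteins. It stood at 11.27 and 10.92 in aldosterone rats, against 11.36 and 11.05 in vehicle rats. The 4 rats stood in the same order for Tmprss2 as for St14, with a vehicle rat highest and an aldosterone rat lowest for both genes. That likeness was picked after the values were seen, and 4 arrays allow no correlation between genes. The means were 11.10 ± 0.25 in aldosterone rats and 11.21 ± 0.22 in vehicle rats, a difference of -0.11 with an interval from -0.63 to 0.41. The gap between the rats of 1 group, 0.35 with aldosterone and 0.31 with vehicle, exceeded that difference. It was positive, 0.064, without the aldosterone rat of replicate 2 and 0.043 without the vehicle rat of replicate 1.

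Furin encodes the proprotein convertase of the Golgi that makes the first cuts in the alpha and gamma subunits. It stood at 8.30 and 8.28 in aldosterone rats, against 8.32 and 8.22 in vehicle rats. The rats lay close together, and both aldosterone values lay between the vehicle values. The means were 8.29 ± 0.016 in aldosterone rats and 8.27 ± 0.071 in vehicle rats. The difference of 0.022 had an interval from -0.26 to 0.30, which widened to -0.57 to 0.61 with the prior that follows the level. Of the rows with a mean of 4 or more, 95.9% had a larger gap between the aldosterone rats than Furin had, and 82.4% had a larger gap between the vehicle rats.

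Hpn encodes hepsin, a transmembrane protease that is abundant in liver. It stood at 2.58 and 2.93 in aldosterone rats, against 2.45 and 2.82 in vehicle rats. With a mean of 2.69 it was the only 1 of the 7 below 3 and so near the floor. In both groups the rat of replicate 2 was higher, as were the medians of all rows in those arrays (2.44 with aldosterone and 2.43 with vehicle, where the arrays of replicate 1 had 2.33 with aldosterone and 2.22 with vehicle). The difference was 0.11 with an interval from -0.44 to 0.67.

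Spint1 encodes HAI-1, the inhibitor of matriptase and hepsin at the epithelial surface. It stood at 11.53 and 11.45 in aldosterone rats, against 11.22 and 11.44 in vehicle rats. Both aldosterone values exceeded both vehicle values, but the lower aldosterone value and the higher vehicle value were nearly the same. Spint1 was the only 1 of the 7 whose groups did not overlap, where 27.8% of all rows had groups that did not, so that 14.3% of the 7 genes is no more than the share over the arrays as a whole. With each array centred on its median, the groups of Spint1 overlapped too. The means were 11.49 ± 0.058 in aldosterone rats and 11.33 ± 0.16 in vehicle rats. The difference of 0.16 (1.12-fold) had an interval from -0.19 to 0.51 and an unadjusted p of 0.275 in limma (adjusted p = 1.00).

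Spint2 encodes HAI-2, the inhibitor of prostasin and matriptase whose loss underlies the sodium diarrhoea named above. It stood at 12.09 and 12.25 in aldosterone rats, against 12.14 and 12.16 in vehicle rats. The vehicle values lay between the aldosterone values. The means were 12.17 ± 0.11 in aldosterone rats and 12.15 ± 0.017 in vehicle rats. Its difference of 0.015 was the smallest of the 7, with an interval from -0.29 to 0.32. Its sign turned with each array centred on its median (-0.042) and with quantile normalization (-0.089), so that no direction is given for it. The same holds for Furin, at -0.036 after centring.

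The gap between the rats of at least 1 group was larger than the difference between groups in 7 of 7 genes, and the gap was larger in both groups in 5. In the other two, Spint1 and St14, it was larger in the vehicle group alone for Spint1 and in the aldosterone group alone for St14. The largest gap was 0.51, between the aldosterone rats for Prss8. In size, 6 of the 7 differences lay below 0.20, the median of the rows with a mean of 4 or more. Hpn, near the floor, is not among those rows. The median size of the 7 differences was 0.11, against 0.094 over all rows, most of which lay near the floor.

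**Figure D2:**
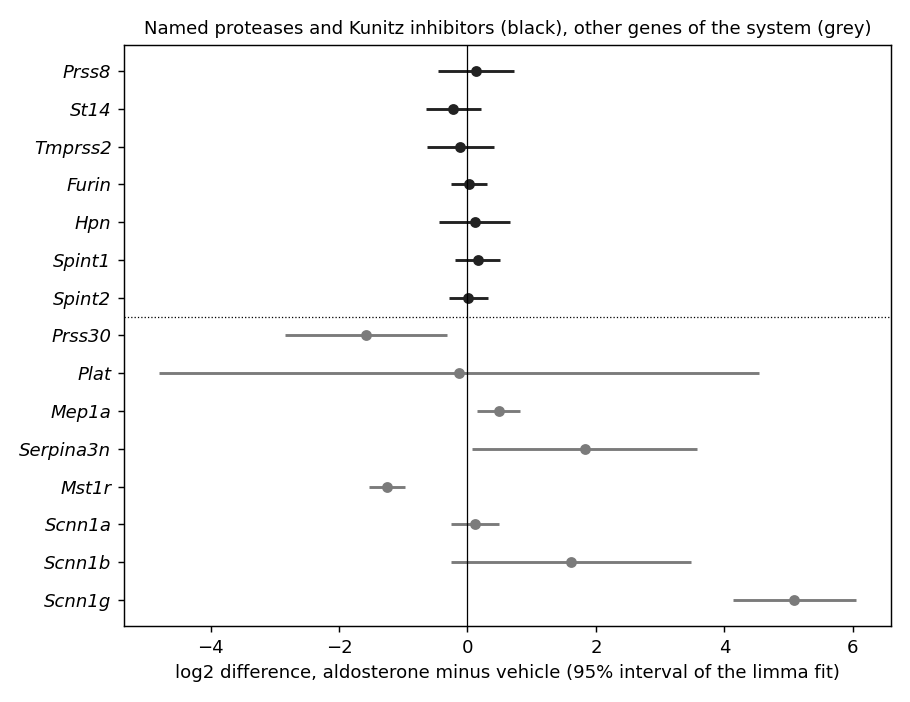
Log2 differences, aldosterone minus vehicle, with 95% intervals of the limma fit (n = 2 rats per group), for the 7 proteases and inhibitors in black and for other genes of the system in grey. The 7 black intervals all include 0 and none reaches beyond -0.65 or 0.72, while the gamma subunit gene Scnn1g, near the floor in vehicle rats, lies at 5.09, to be read as a lower bound.

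Of the subunit genes of the channel, Scnn1g and Scnn1b were higher in both aldosterone rats without overlap, as were 16.7% of all rows. The groups of Scnn1a overlapped. Scnn1g, the gamma subunit gene, lay at 6.65 and 7.61 in aldosterone rats, against 2.05 and 2.03 in vehicle rats. Both vehicle values lay near the floor, so that the difference of 5.09 is a lower bound. Its adjusted p was 0.402 with the common prior and 6.95e-05 with the prior that follows the level. Scnn1b, the beta subunit gene, lay at 4.06 and 5.98 in aldosterone rats, against 3.44 and 3.37 in vehicle rats. Its difference was 1.61 with an interval from -0.25 to 3.47, and ran from 0.65 to 2.57 with 1 array left out. Scnn1a, the alpha subunit gene, lay at 8.94 and 8.68 in aldosterone rats, against 8.75 and 8.64 in vehicle rats, with a difference of 0.12 and an interval from -0.26 to 0.49.

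Among other membrane-anchored serine proteases, Prss30 stood out in size. Prss30 is known in mouse as the distal intestinal serine protease, and it has been reported to activate the sodium channel. It stood at 5.21 and 4.64 in aldosterone rats, against 7.08 and 5.93 in vehicle rats. Both aldosterone values were below both vehicle values, and the vehicle rats differed from each other by 1.15. The difference was -1.58 (2.99-fold lower, interval -2.84 to -0.32), with an unadjusted p of 0.0249 in limma. Groups apart in that direction were found in 11.1% of all rows. Its adjusted p in limma was 0.945, and from 0.211 to 1.00 over the alternatives. With 1 array left out the difference ran from -2.15 to -1.01. The interval was -2.45 to -0.71 with the prior that follows the level, and -4.33 to 1.17 with no moderation. In the RefSeq annotation Prss22, which was not analysed here, is the next protein-coding gene beside Prss30.

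Of the 20 proteases in that list, 14 had a row, and 13 of these had a mean below 3, among them Tmprss3, Tmprss13 and Corin. None passed, 9 differences were positive and 5 negative, with a median of 0.029. Proprotein convertases other than furin were measured for 6 of 8 genes, with differences from -0.044 to 0.18 and a median of 0.042, and none passed. Pcsk7, a widely expressed convertase, lay at 6.87 and 6.34 in aldosterone rats, against 7.01 and 6.28 in vehicle rats. Mbtps1, the site-1 protease that releases membrane-bound transcription factors, lay at 7.94 and 8.08 in aldosterone rats, against 8.23 and 7.85 in vehicle rats. For both, the vehicle values enclosed the aldosterone values. Pcsk4, a convertase known from testis, lay at 2.90 and 3.32 in aldosterone rats, against 2.61 and 3.26 in vehicle rats, close to the floor and with groups that overlapped.

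**Figure D3:**
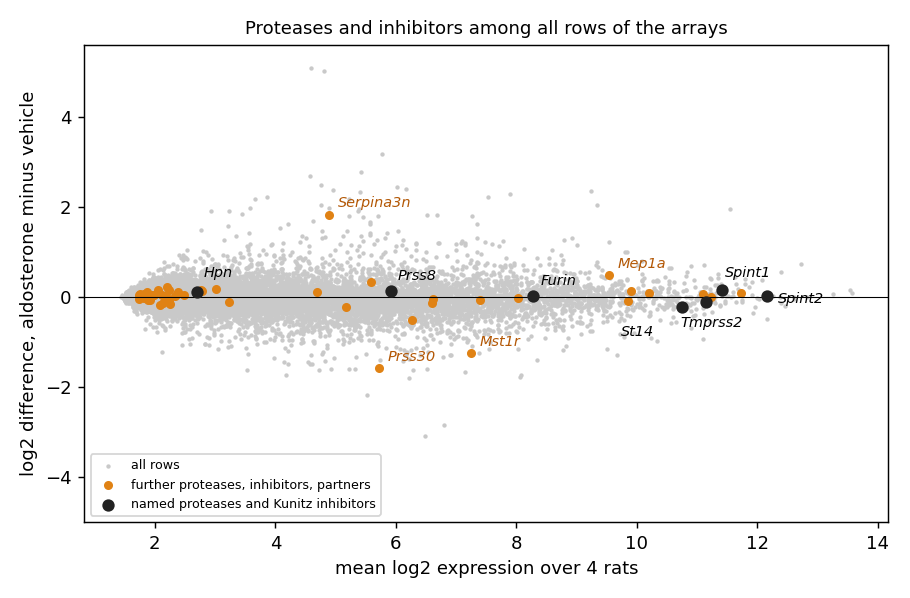
Difference against mean log2 expression for all 19403 rows (grey), with the 7 proteases and inhibitors in black and the further proteases, inhibitors and partners in orange. The black points lie between -0.22 and 0.16, and Serpina3n (1.83), Mst1r (-1.25) and Prss30 (-1.58) lie farthest from it among the orange points.

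Other proteases reported to act on the channel, or their activators, were measured for 10 of 16 genes, and none passed (median difference 0.0039). Mep1a, the alpha subunit of the brush border metalloprotease meprin, lay at 9.82 and 9.74 in aldosterone rats, against 9.19 and 9.39 in vehicle rats. Both aldosterone values were higher, by 0.49 on average (1.40-fold, interval 0.15 to 0.82). Groups apart in that direction were found in 16.7% of all rows. With the prior that follows the level the interval was -0.027 to 1.00. Mep1a had an unadjusted p of 0.0156 and an adjusted p of 0.884 in limma. With the alternatives its adjusted p ran from 0.681 to 1.00. The lysosomal cathepsin genes Ctsb and Ctss overlapped, Ctsb at 11.08 and 11.38 in aldosterone rats, against 11.28 and 11.17 in vehicle rats, and Ctss at 9.61 and 10.03 in aldosterone rats, against 9.87 and 9.93 in vehicle rats.

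Plat, which encodes tissue plasminogen activator, differed between the rats of each group far more than between groups. It stood at 8.28 and 4.78 in aldosterone rats, against 4.97 and 8.35 in vehicle rats. One rat of each group was thus far above the other, by 3.50 with aldosterone and by 3.38 with vehicle. The difference between groups was -0.13, with an interval from -4.81 to 4.54. Plg, which encodes plasminogen, and Plau, which encodes urokinase, both lay below 3 in every rat.

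**Figure D4:**
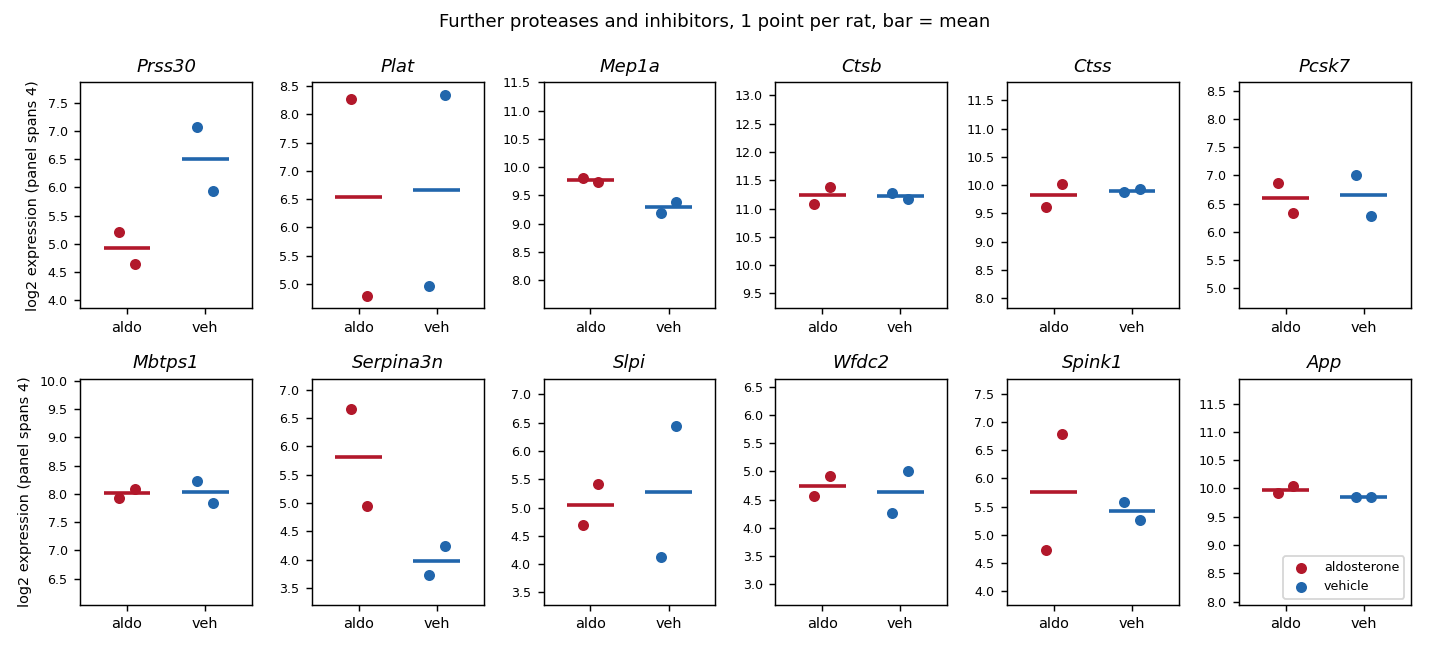
Log2 expression of 12 further proteases and inhibitors, 1 point per rat and a bar for each group mean (n = 2 each), aldosterone left and vehicle right, every panel spanning 4 log2 units. Prss30 is lower and Mep1a and Serpina3n are higher in both aldosterone rats, while Plat, Slpi and Spink1 differ mainly between rats of the same group.

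Of 23 further protease inhibitors, 14 had a row, and none passed (median difference 0.065). The groups did not overlap in 7 of the 14, all higher in aldosterone rats, where 16.7% of all rows were. Of those 7, 5 had means below 3, and after centring of the arrays 1 of the 14 was higher and 3 were lower without overlap, where 9.61% of all rows were higher and 17.2% lower in that way. Serpina3n, an acute-phase serpin, lay at 6.67 and 4.94 in aldosterone rats, against 3.73 and 4.23 in vehicle rats. Both aldosterone values were higher, and they differed from each other by 1.73. The difference was 1.83 (interval 0.077 to 3.57), with an unadjusted p of 0.0441 and an adjusted p of 1.00 in limma, and from 0.362 to 1.00 over the alternatives. It was 0.96 without the aldosterone rat of replicate 1 and 2.69 without that of replicate 2. The interval was 0.81 to 2.84 with the prior that follows the level. It included 0 after centring (-0.0099 to 3.55) and with no moderation (-2.05 to 5.70).

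The groups overlapped for the secreted inhibitors Slpi, Spink1 and Wfdc2. Slpi, an inhibitor of leukocyte elastase, lay at 4.69 and 5.42 in aldosterone rats, against 4.12 and 6.44 in vehicle rats. Spink1, a trypsin inhibitor, lay at 4.74 and 6.78 in aldosterone rats, against 5.57 and 5.27 in vehicle rats. Wfdc2 lay at 4.56 and 4.93 in aldosterone rats, against 4.26 and 5.02 in vehicle rats. App, some of whose protein forms carry a Kunitz domain, lay at 9.92 and 10.04 in aldosterone rats, against 9.84 and 9.85 in vehicle rats, and its groups did not overlap by a small margin (difference 0.13, interval -0.16 to 0.42, and from 0.067 to 0.19 with 1 array left out). Wfikkn1, a secreted protein with a Kunitz domain, lay at 3.26 and 3.10 in aldosterone rats, against 3.13 and 3.46 in vehicle rats, with groups that overlapped.

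Among 10 substrates and partners of matriptase and its relatives, 8 had a row and none passed. F2rl1, which encodes the protease-activated receptor PAR2, lay at 10.32 and 10.17 in aldosterone rats, against 10.11 and 10.20 in vehicle rats. Epcam, an adhesion molecule cleaved by matriptase, lay at 11.76 and 11.81 in aldosterone rats, against 11.74 and 11.65 in vehicle rats, and its partner Cldn7 at 11.08 and 11.19 in aldosterone rats, against 11.22 and 10.92 in vehicle rats. Their intervals were -0.22 to 0.40 for F2rl1, -0.19 to 0.37 for Epcam and -0.34 to 0.47 for Cldn7.

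The receptor tyrosine kinases whose ligands are activated by these proteases gave unlike values. Mst1r, the receptor RON, lay at 6.59 and 6.65 in aldosterone rats, against 7.90 and 7.85 in vehicle rats, with a difference of -1.25 and an interval from -1.53 to -0.98. Both aldosterone values were below both vehicle values, as in 11.1% of all rows. With the prior that follows the level, Mst1r had an interval from -1.89 to -0.61. Its adjusted p was 0.402 in limma and from 0.199 to 1.00 over the alternatives. Met, the receptor of hepatocyte growth factor, lay at 7.74 and 7.01 in aldosterone rats, against 7.42 and 7.45 in vehicle rats. The ligand genes Hgf and Mst1 had means below 3.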

How the data were processed

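The table deposited by the authors holds log2 values, 1 for each row on each array. RMA, a method that corrects background, equalises arrays and summarises probes, is named with Partek and Affymetrix Expression Console per the submitters' processing notes, which give no version. The log2 scale was read from the range of the values. The build is not given in the sources used here. Rows were named through the platform annotation, with symbols brought up to date by Entrez ID against RefSeq: 13327 of 19403 rows had 1 symbol, 620 several and 5456 none here. A gene with several rows was given by its highest-mean row. Aldosterone was compared with vehicle in limma 3.58.1 (R 4.3.3, lmFit and eBayes, two-sided, no covariate), with Benjamini and Hochberg adjustment over all rows. Tables and figures used Python 3.11.15, pandas 2.3.3 and matplotlib 3.10.9. The fit was also run on simulated data, with known changes and variances drawn from the prior that follows the level. No result here rests on that run. Per the labels each array is a biological replicate, 1 rat, and the number of arrays limits the precision.

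The genes, lists and tests were chosen with earlier results of these data known. Besides the 9 genes, the text names from each list up to 5 genes with the highest mean and up to 3 with the smallest unadjusted p among those with a mean of 3 or more, leaving out genes near the floor. Folds are given where both group means exceed 2.35, the median of row means. Tmprss3, Tmprss13, Corin, Plg, Plau, Hgf and Mst1 are named as genes near the floor, chosen after their values were seen. The alternatives were quantile normalization, centring on array medians, a prior that follows the level (called the intensity trend), a robust prior, a fit with no moderation, filters on low rows, the replicate number as a block, and each array left out.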

Additional observations from a re-analysis of the deposited data

How the results depend on the processing

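With 2 rats per group, the number of arrays limits the precision. Under 13 alternatives the count of the 7 proteases and inhibitors called was 0 each time (adjusted p from 0.776 to 1.00). Hpn was not tested where rows with a mean under 3 were left out, and no gene of the set had several rows to average. The count of all rows called was 0 in the main fit, 21 with the intensity trend, 1 with rows under a mean of 3 left out, 1 with rows under the median left out and 6 with the replicate block together with the intensity trend. The replicate block alone called 0 rows. Same-numbered rats shared a correlation of deviations of 0.15 over all rows, but the labels give the number no meaning and only 2 pairs exist, so the block is an alternative and not a pairing. Under the block alone the difference of St14 stayed -0.22 (interval -0.51 to 0.066). Signs turned with centring for Furin (-0.036), Spint2 (-0.042) and Ctsb (-0.051), and with quantile normalization for Spint2 (-0.089), Ctsb (-0.10) and Pcsk7 (0.022). Centring subtracts the 0.058 by which the array medians differed between the groups. The cause of the other turns was not tested. With 1 array left out, differences ran from -0.13 to 0.38 for Prss8, -0.36 to -0.087 for St14, -0.29 to 0.064 for Tmprss2, -0.028 to 0.072 for Furin, -0.070 to 0.30 for Hpn, 0.047 to 0.27 for Spint1 and -0.063 to 0.093 for Spint2. The same range was -0.41 to 0.32 for Pcsk7, -0.15 to 0.50 for Pcsk4, -0.22 to 0.16 for Mbtps1, -1.88 to 1.62 for Plat, -0.14 to 0.16 for Ctsb, -0.29 to 0.13 for Ctss, -1.39 to 0.94 for Slpi, -0.28 to 0.48 for Wfdc2, -0.68 to 1.36 for Spink1, -0.27 to 0.049 for Wfikkn1, -0.085 to 0.22 for Cldn7, -0.42 to 0.30 for Met and -0.011 to 0.25 for Scnn1a. The lone array of a group was then assumed to vary like the other group.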

Other observations

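The balance between an inhibitor and a protease was described within each array, as the log2 value of Spint1 or Spint2 minus that of each of the 5 measured proteases, a comparison chosen after the values were seen. Only its change between groups can be read, since rows have their own probes. Of 10 such pairs, 7 changed upward and 3 downward, from -0.11 to 0.38, and in 1 the groups did not overlap. Among single rows, 27.8% had groups that did not overlap. The pairs reuse the values of the same 7 genes and are not independent. Spint2 minus Furin changed by only -0.0067, and the pairs with Hpn rest on a row near the floor. The pair without overlap was Spint1 minus St14, HAI-1 over its target matriptase. It stood at 0.75 and 0.94 in the aldosterone rats, against 0.24 and 0.68 in the vehicle rats. Its change was 0.38, and ran from 0.16 to 0.60 with 1 array left out. No test is given, since the pair was singled out by its values.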
